A study of Macaca mulatta with 12 samples.

Results

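Metalloproteases, their tissue inhibitors and serpins form 81 of the 14132 genes that the rhesus array measured, through 159 of 24956 probe sets with a single gene symbol. The members were taken by symbol: matrix metalloproteases (MMP, 22 genes), tissue inhibitors of metalloproteases (TIMP, 3), ADAM proteases (9), ADAMTS proteases (17), ADAMTS-like proteins, which carry no protease domain (4), and serpins (26). Where a gene had several probe sets, the brightest on average across the 12 arrays stood for it. ADAM17 and TIMP4 were not analysed here.

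The study compared cultured cells of rhesus macaques (Macaca mulatta), with 3 arrays for each of 4 cell populations. Skin fibroblasts came from a biopsy of an adult male of 9 years and grew without feeder cells. ORMES-9 is a female embryonic stem (ES) line, profiled at passages 13, 14 and 16, that one label describes as a homozygous parthenote, carrying maternal alleles only, and another as derived from an in vitro fertilised (IVF) blastocyst. rPESC-2 is a female ES line from a heterozygous parthenogenetic blastocyst, at passages 16, 10 and 16. ORMES-22 is a female ES line from an IVF blastocyst, at passages 18, 21 and 19, and served as the biparental control. All 3 ES lines grew on inactivated mouse embryonic fibroblasts, and their RNA was taken from colonies judged undifferentiated. Each kind of cell was represented by 1 line or 1 biopsy, so a p-value here reflects only how much repeat cultures or arrays vary. The main fit pooled that spread over all 4 cell populations, although members varied more within ORMES-22 than within fibroblasts. In the fibroblast comparison line, sex, age, medium, feeders and cell type cannot be told apart. No gene was targeted in this design.

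Metalloproteases cut proteins of the extracellular matrix and the cell surface. MMPs cleave collagens, elastin and other matrix proteins, ADAM proteases release the outer parts of membrane proteins, and ADAMTS proteases process procollagens and proteoglycans. TIMPs block metalloproteases, while most serpins trap serine proteases such as urokinase, thrombin and elastases, and some serve as chaperones or hormone carriers instead. Connective tissue cells are known for making many of these proteins, and stem cell colonies are in contact with matrix laid down by themselves and by feeder cells.

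The labels were checked against marker genes. The 8 measured fibroblast markers had array means of 10.58 to 10.64 in fibroblasts, 7.33 to 7.57 in ORMES-9, 6.97 to 7.55 in rPESC-2 and 7.91 to 8.12 in ORMES-22, on the log2 scale of the deposited values. Of these, 6 were called higher in fibroblasts, and LUM had a group mean under background in all 3 ES lines. DCN and THY1 were not called, with 6.69 and 9.42 in fibroblasts and 7.11 and 9.74 over the ES lines. The 8 measured pluripotency markers averaged 5.02 to 5.14 in fibroblasts, 9.94 to 10.15 in ORMES-9, 9.90 to 9.95 in rPESC-2 and 9.73 to 9.99 in ORMES-22, although NANOG was 1.32 higher in fibroblasts through its brightest probe set. Of 4 macrophage and leukocyte markers PTPRC was at or under background in every group. CD68, CD14 and AIF1 were above it in every group, with 5.39, 5.92 and 5.24 in fibroblasts. Array A of ORMES-22 stood apart: it correlated with the other arrays of its line at 0.984 and 0.986 over all probe sets, below its values of 0.988 to 0.990 with rPESC-2 arrays. Counts of called members that involve ORMES-22 are given with and without that array, while pathway genes are given only with it.

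Background was set at 4.26, the 90th percentile of all values of the 42 bacterial control probe sets on the 12 arrays. By this level 61 members were detected in fibroblasts, 59 in ORMES-9, 59 in rPESC-2 and 62 in ORMES-22, and 55 were detected in all 4 groups. Another 13 stayed at or under background everywhere, with group means of 3.18 to 4.20. These were ADAMTS20, MMP8, MMP13, MMP20, MMP21, MMP26, MMP27, SERPINA7, SERPINA10, SERPINB7, SERPINB11, SERPINB12 and SERPINI2. A value under the background sets only an upper limit on a gene, and low differences are understated.

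Fibroblasts against the mean of the 3 ES lines gave by far the most differences. Members were counted as called at an adjusted p under 0.05 in limma with at least a 2-fold difference. Of the 81 members 34 were called (42%), 23 higher and 11 lower in fibroblasts, against 27.4% of all 14132 genes, of which 12.9% were higher and 14.5% lower. The median difference of members was −0.07 and that of all genes −0.15, and the median size of the difference was 0.60 for members and 0.45 for all genes. Without the 2-fold minimum 57 members passed (70.4%), the same share as among all genes (70.4%). The 3 fibroblast arrays lay wholly above or below the 9 ES arrays for 51 of the 81 members (63%), the 34 called ones included, and for 57.5% of all genes. The count of called members was also 34 without ORMES-22 array A. By family the called share was 50% of MMPs, 66.7% of the 3 TIMPs, 44.4% of ADAMs, 47.1% of ADAMTS genes, 25% of ADAMTS-like genes and 30.8% of serpins, the last 2 near the 27.4% of all genes. In bulk cultures, fewer cells making an RNA and less RNA per cell cannot be told apart.

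**Figure D1:**
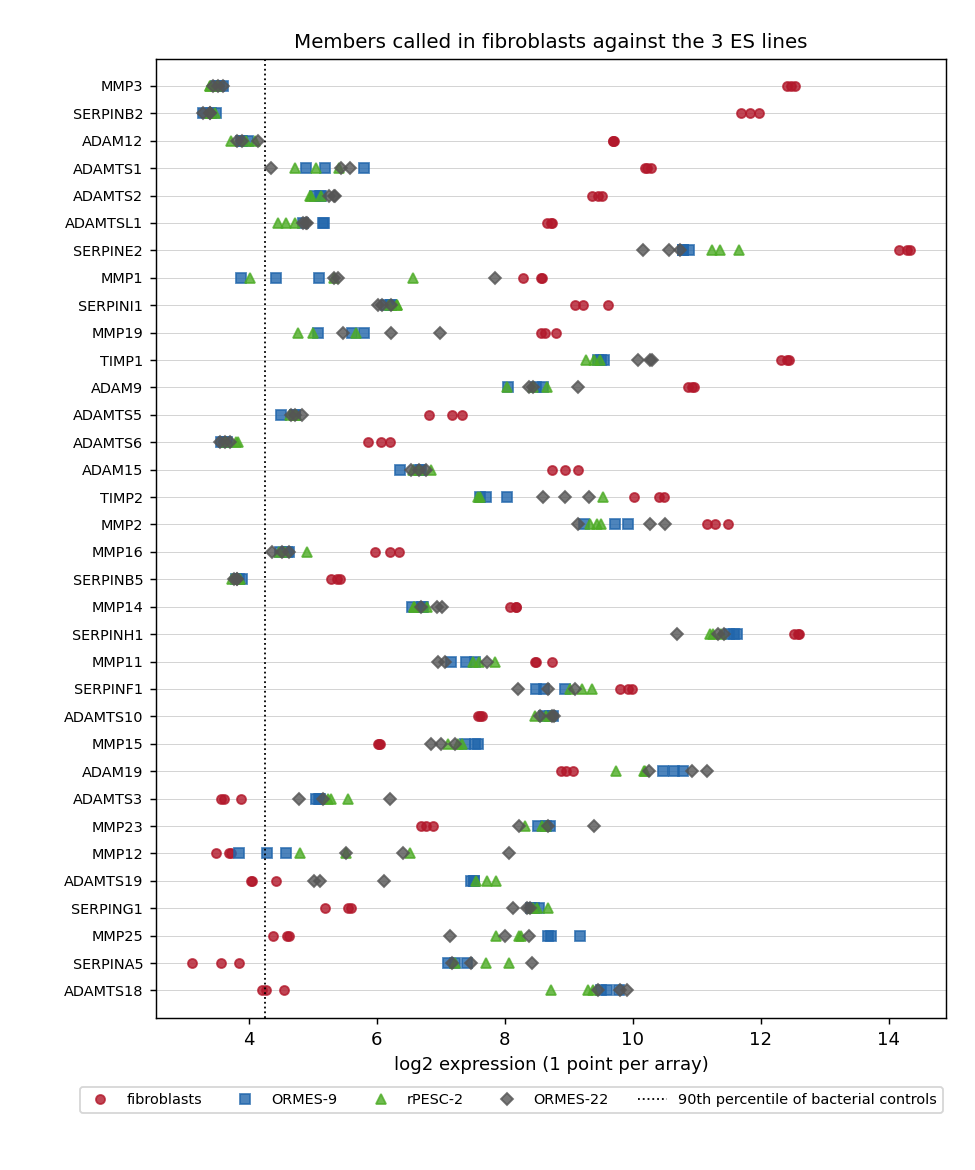
Log2 expression (x axis) of the 34 members called in fibroblasts against the 3 ES lines, 1 point per array, with fibroblasts in red circles, ORMES-9 in blue squares, rPESC-2 in green triangles and ORMES-22 in grey diamonds. Members run down the page by difference, the 23 higher in fibroblasts above the 11 lower ones, and no fibroblast point lies among the ES points of its row; the dotted line marks the background of 4.26.

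Among the matrix metalloproteases 7 rose and 4 fell in fibroblasts, of 22. MMP3, stromelysin-1, which cleaves proteoglycans and activates other MMPs, had 12.40, 12.53 and 12.46 in fibroblasts, against a lowest, median and highest value of 3.39, 3.50 and 3.60 over the 9 ES arrays. Every ES array was under background, so the difference of 8.97 (SE 0.06, adjusted p = 3.23e-16) is given as at least 296-fold higher. MMP1, the interstitial collagenase encoded beside it, had 8.58, 8.56 and 8.28 in fibroblasts, against 3.89, 4.42 and 5.10 in ORMES-9, 6.56, 5.33 and 4.02 in rPESC-2 and 5.34, 5.39 and 7.84 in ORMES-22. It was higher by 3.15 (SE 0.56, adjusted p = 0.000375), and array C of ORMES-22 came within less than 1 log2 unit of the fibroblasts.

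MMP19, which cleaves basement membrane proteins, had 8.80, 8.57 and 8.63 in fibroblasts, against 4.76 to 6.99 in the ES lines, and was 3.04 higher (SE 0.27, adjusted p = 9.15e-07). A dimmer probe set of MMP19 differed by 0.17 only. The gelatinase MMP2 had 11.28, 11.16 and 11.49 in fibroblasts, against 9.15 to 10.50 in the ES lines, a rise of 1.64 (adjusted p = 6.18e-05) that a second probe set, at −0.23, did not share. MMP14, the membrane protease that activates MMP2 at the cell surface, had 8.08, 8.17 and 8.18 in fibroblasts, against 6.56 to 7.02 in the ES lines, and rose by 1.41 (adjusted p = 1.19e-08). MMP16, another membrane-type enzyme, rose by 1.60, and MMP11, stromelysin-3, by 1.15. For each of these genes the fibroblast arrays were the highest of the 12.

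The 4 MMPs that were lower in fibroblasts include a pair of membrane-bound enzymes. MMP25, held to the membrane by a lipid anchor, had 4.39, 4.59 and 4.63 in fibroblasts, against 8.73, 9.18 and 8.67 in ORMES-9, 7.86, 8.22 and 8.25 in rPESC-2 and 7.997, 8.38 and 7.15 in ORMES-22. Its difference was −3.73 (SE 0.21, adjusted p = 1.03e-08), and a second probe set gave −0.23. MMP15, a membrane-type enzyme, fell by 1.22, and MMP23 fell by 1.85. MMP12, the macrophage elastase, had 3.49, 3.69 and 3.73 in fibroblasts, all under background, and fell by 1.87 (adjusted p = 0.00314), at least 2.37-fold. That call rested on 2 lines: against ORMES-9 alone the difference was −0.60 (adjusted p = 0.375). The gelatinase MMP9 had 4.11, 4.54 and 4.24 in fibroblasts, against 4.74 to 5.69 in the ES lines, a difference of −0.91 (adjusted p = 4.4e-05) that missed the 2-fold minimum, with 1 of 3 fibroblast arrays above background.

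Of the 3 TIMPs, 2 rose in fibroblasts and TIMP3 was not called. TIMP1, a secreted inhibitor of most MMPs, had 12.45, 12.32 and 12.41 in fibroblasts, against a lowest, median and highest ES value of 9.27, 9.50 and 10.30. It was 2.69 higher (SE 0.07, adjusted p = 6.95e-12), and 2 other probe sets gave 1.20 and 1.53, both called. TIMP2, which inhibits MMPs and with MMP14 activates MMP2, had 10.48, 10.03 and 10.41 in fibroblasts, against 7.59 to 9.53 in the ES lines, and rose by 1.98 (SE 0.34, adjusted p = 0.000278). TIMP3, which is bound to the matrix, had 7.48, 7.44 and 7.27 in fibroblasts, against 5.69 to 7.83 in the ES lines. Its groups overlapped, and the difference of 0.86 (adjusted p = 0.0393) was under 2-fold.

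Of the 9 ADAM genes 3 rose and 1 fell. ADAM12, a protease of mesenchymal cells that cleaves growth factor binding proteins, had 9.68, 9.69 and 9.71 in fibroblasts, against 3.72 to 4.15 in the ES lines, and was at least 43.4-fold higher (difference 5.76, adjusted p = 6.9e-14). Its 2 other probe sets gave 7.00 and 5.57. ADAM9, a membrane protein sheddase, rose by 2.45 and ADAM15 by 2.30, the second with 0.35 through another probe set. ADAM19, which releases neuregulin from membranes, fell by 1.51 (adjusted p = 5.06e-06), with −0.14 through another probe set. ADAM10, the main sheddase of Notch receptors, had 10.64, 10.78 and 10.75 in fibroblasts, against 11.21 to 11.76 in the ES lines. The difference of −0.77 (adjusted p = 2.32e-06) was under 2-fold. Another ADAM10 probe set had means of 10.35 in fibroblasts and 10.94 over the ES lines. The remaining one, with 9.81 and 9.76, did not share the direction.

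Through their brightest probe sets 4 ADAMTS genes were higher and 4 lower of 17, and 1 of 4 ADAMTS-like genes rose. ADAMTS1, which cleaves versican and aggrecan, had 10.19, 10.22 and 10.28 in fibroblasts, against 4.35 to 5.80 in the ES lines, and rose by 5.07 (SE 0.25, adjusted p = 3.37e-09). ADAMTS2, which removes the amino-terminal propeptide of procollagens, had 9.52, 9.36 and 9.46 in fibroblasts, against 4.95 to 5.35 in the ES lines, and rose by 4.30 (adjusted p = 3.68e-14). ADAMTS5, an aggrecanase, rose by 2.41 and ADAMTS6 by 2.38, at least 3.45-fold. A second probe set of ADAMTS6, at background, differed by −0.12. ADAMTSL1 rose by 3.86, and 4 of its 5 other probe sets gave 1.10 to 3.94 while the last gave 0.04.

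The opposite direction was led by ADAMTS18, which had 4.20, 4.27 and 4.55 in fibroblasts, against a lowest, median and highest value of 8.72, 9.51 and 9.91 over the 9 ES arrays. It fell by 5.15 (SE 0.14, adjusted p = 1.49e-11), and its second probe set fell by 1.77. ADAMTS19 fell by 2.70 (adjusted p = 8.91e-08), with only 1 of its 3 fibroblast arrays above background, so the size of that difference may be understated, and ADAMTS3, which also processes procollagens, fell by 1.59 (adjusted p = 4.55e-05), at least 2.03-fold. For ADAMTS10, a protein of microfibrils, the probe sets went opposite ways: the brightest gave −1.04, another +2.49, both called, and the remaining one −0.20. No direction is therefore given for that gene.

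Of 26 serpins 6 rose and 2 fell, a share near that of all genes. SERPINB2, plasminogen activator inhibitor 2, had 11.69, 11.97 and 11.82 in fibroblasts, against 3.28 to 3.49 in the ES lines. All ES arrays were under background, and the gene was at least 190-fold higher (difference 8.43, SE 0.07, adjusted p = 8.1e-16). SERPINE2, protease nexin-1, which inhibits thrombin and urokinase, had 14.16, 14.29 and 14.33 in fibroblasts, against 10.16 to 11.65 in the ES lines, and rose by 3.35 (adjusted p = 1.07e-10), with 2.97 to 3.96 through its 3 other probe sets. SERPINI1, neuroserpin, an inhibitor of tissue plasminogen activator, rose by 3.11 (adjusted p = 3.84e-11). SERPINH1, the collagen chaperone HSP47, had 12.60, 12.52 and 12.58 in fibroblasts, against 10.70 to 11.62 in the ES lines, and rose by 1.23 (adjusted p = 2.72e-06). Of its other probe sets one gave 1.25 and one −0.96. SERPINB5, maspin, rose by 1.54 through a probe set that was under background on every ES array, and SERPINF1, the secreted factor PEDF, by 1.06.

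The fallen serpins both act in blood plasma. SERPINA5, the protein C inhibitor, had 3.57, 3.85 and 3.11 in fibroblasts, against 7.11, 7.41 and 7.22 in ORMES-9, 7.71, 8.06 and 7.22 in rPESC-2 and 8.43, 7.48 and 7.17 in ORMES-22. It was at least 9.69-fold lower (difference −4.02, adjusted p = 2.62e-08), and another probe set gave −0.32. SERPING1, the C1 inhibitor of the complement cascade, had 5.60, 5.19 and 5.56 in fibroblasts, against 8.14 to 8.67 in the ES lines, and fell by 2.98 (SE 0.09, adjusted p = 4.98e-11).

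**Figure D2:**
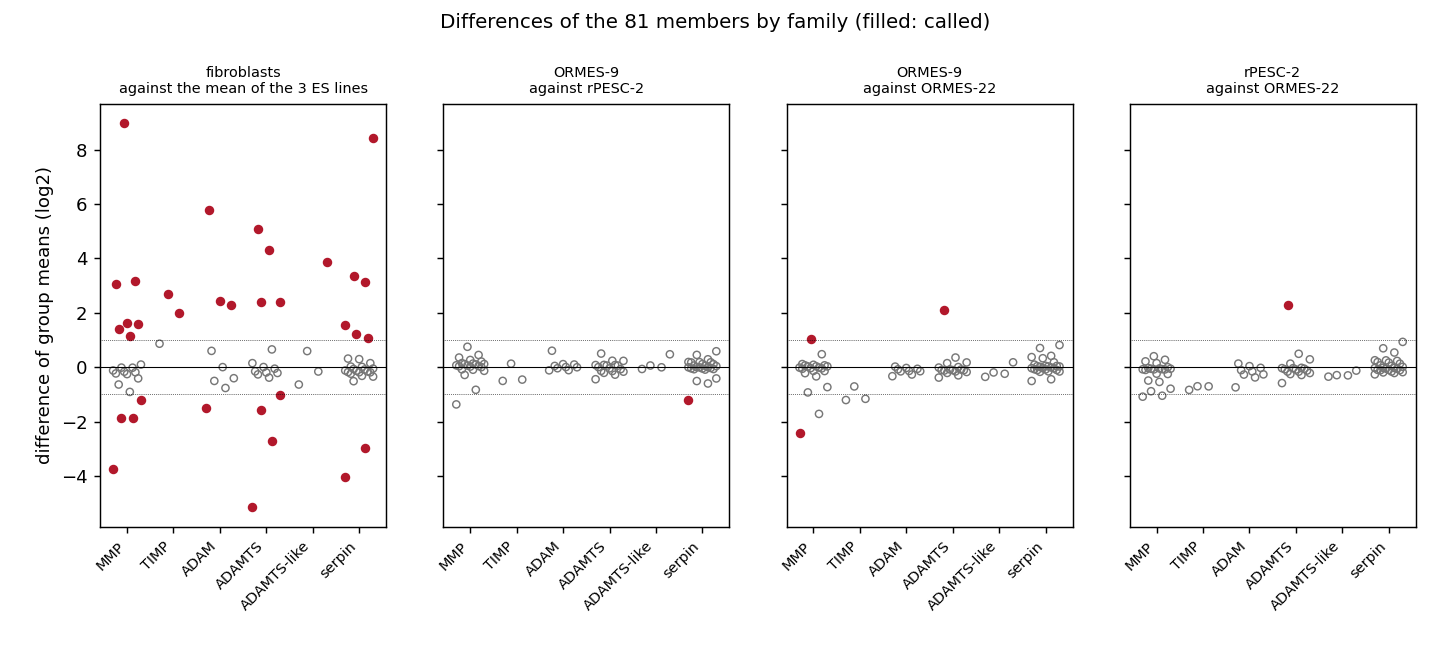
Differences of group means (y axis, log2) of all 81 members, by family, in the 4 comparisons, with called members filled; the dotted lines mark 2-fold. In the fibroblast comparison the differences run from −5.15 to 8.97, and between the ES lines from −2.42 to 2.30.

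Of the 34 called members 26 had more than 1 probe set, and in 2 of them, ADAMTS6 and SERPINB5, the other one was at background. Of the remaining 24, 11 had all their other probe sets above background called in the same direction and 13 had at least 1 that was not called. ADAMTS10, among those 13, also had 1 called in the opposite direction. Averaged over all probe sets of a gene, ADAM19 (−0.83), MMP2 (0.70), MMP11 (0.86), SERPINB5 (0.68) and SERPINH1 (0.51) were under 2-fold. SERPINF1 was under 2-fold without ORMES-22 array C (0.98) and after quantile normalisation (0.94). Against single lines MMP11 (0.92) and SERPINF1 (0.71) were under 2-fold for rPESC-2, as were ADAMTS10 (−0.99) for rPESC-2, MMP15 (−0.99) for ORMES-22 and SERPINH1 (0.9975) for ORMES-9.

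**Figure D3:**
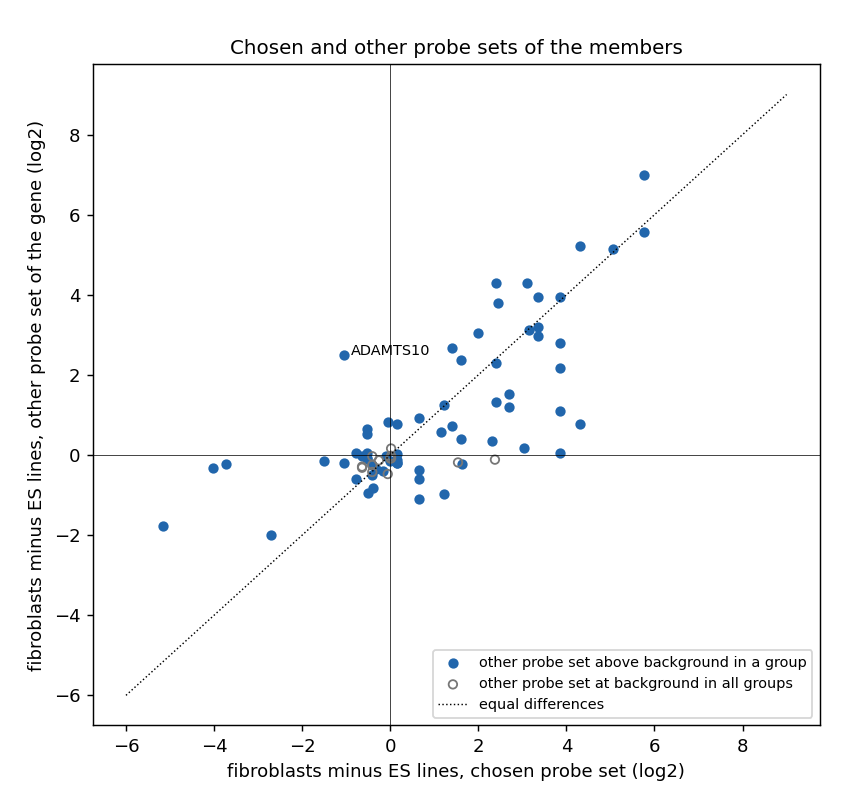
Difference of fibroblasts minus ES lines (log2) through the brightest probe set of a member (x axis) and through each other probe set of the same gene (y axis); filled points were above background in at least 1 group and the dotted line marks equal differences. ADAMTS10 lies at −1.04 on the x axis and 2.49 on the y axis.

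Genes of connected pathways were compared with the same test. The called share was 56.2% of the other pericellular proteases and 55.6% of the matrix genes around ADAMTS proteins, and 22.2% to 35% of the other 4 lists, near the 27.4% of all genes. Of 16 measured pericellular proteases outside the member families 9 rose in fibroblasts and none fell: FAP, fibroblast activation protein, by 5.997, the serine protease HTRA1 by 5.40, and the cathepsin CTSK by 4.64 were the largest. Among 20 partners in plasminogen activation and coagulation 6 rose and 1 fell: TFPI, an inhibitor of tissue factor, rose by 5.37 and PLAUR, the urokinase receptor, by 2.16, while F2RL1, a receptor activated by proteases, differed by −5.46. Of 12 other protease inhibitors 2 rose (WFDC1 by 5.58, SLPI by 4.36) and 2 were lower (WFDC2 at −2.59, ITIH5 at −1.53). Of 9 partners of ADAM10 and ADAM17 FRMD8, a partner of the rhomboid proteins, rose by 2.50 and TSPAN33, a tetraspanin, differed by −1.96. Of 15 proteins that ADAM proteases shed CD44, NRG1 and HBEGF rose (by 3.17, 2.70 and 2.19), while L1CAM and JAG1 were lower (−1.69 and −1.12). Of 9 matrix genes around ADAMTS proteins the fibrillin FBN1 rose by 5.76, with LTBP1 and FN1, whereas FBN2 and PAPLN were lower (−2.78 and −1.37).

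Between ES lines few members differed, at shares near those of all genes. In rPESC-2 against ORMES-22 1 of 81 members was called (1.23%), against 1.69% of all genes. The pair ORMES-9 and ORMES-22 gave 3 calls (3.7%), 2 higher and 1 lower, against 2.29%. In ORMES-9 against rPESC-2 1 was called (1.23%), against 1.63%. Without the 2-fold minimum the counts were 5, 6 and 4 members, against 6.65%, 8.4% and 7.7% of all genes. The comparisons share arrays: ORMES-22 enters both of its pairs.

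ADAMTS19, an ADAMTS protease, was higher in ORMES-9 and rPESC-2, the lines that the study design names as parthenogenetic. It had 7.52, 7.52 and 7.47 in ORMES-9 and 7.55, 7.72 and 7.87 in rPESC-2, against 6.11, 5.02 and 5.12 in ORMES-22. No array of either line overlapped with ORMES-22, whose array A was the highest of its own. In ORMES-9 the difference was 2.09 (SE 0.23, limma adjusted p = 0.000191) and in rPESC-2 2.30 (SE 0.23, adjusted p = 0.000153). A second probe set gave 2.08 in ORMES-9 and 2.14 in rPESC-2, both called. Without ORMES-22 array A the brightest probe set gave 2.43 in ORMES-9 and 2.64 in rPESC-2. The mean of 7 measured endoderm markers was also higher in these lines than in ORMES-22. The array means were 7.48 to 7.92 in ORMES-9, 7.86 to 8.05 in rPESC-2 and 6.26 to 6.80 in ORMES-22. Against ORMES-22, 3 of the 7 were called higher in ORMES-9 and 4 in rPESC-2. Differences ran from 0.21 to 2.37 in ORMES-9 and from −0.16 to 2.92 in rPESC-2. The part of these markers in the ADAMTS19 result was not tested.

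MMP12 had 3.85, 4.29 and 4.59 in ORMES-9, against 6.41, 5.51 and 8.07 in ORMES-22. In ORMES-9 only 2 of 3 arrays were above background, so the difference may be understated. The groups did not overlap, with ORMES-22 array C the highest, and the difference was −2.42 in ORMES-9 (SE 0.54, adjusted p = 0.0213). The call was lost with only the arrays of these 2 lines (adjusted p = 0.128), with only the 9 ES arrays (0.0704), and without ORMES-9 array A (0.0904) or array B (0.0668). Without ORMES-22 array C the MMP12 difference was −1.72. In rPESC-2 the gene had 6.51, 5.52 and 4.80, overlapping ORMES-22. Of 4 macrophage and leukocyte markers PTPRC was at or under background and 3 were above it in every line, with array means of 4.77 to 4.95 in ORMES-9, 4.75 to 4.90 in rPESC-2 and 4.89 to 5.05 in ORMES-22, and their part in the MMP12 value was not tested.

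MMP25 had 8.73, 9.18 and 8.67 in ORMES-9, against 7.997, 8.38 and 7.15 in ORMES-22. Its groups did not overlap, but ORMES-22 array C was the lowest by far. The difference of 1.02 (SE 0.25, adjusted p = 0.0356) was 0.67 without ORMES-22 array C (adjusted p = 0.0519) and 0.95 after quantile normalisation, neither of them called. It was also lost without any 1 of the ORMES-9 arrays (adjusted p of 0.0792, 0.142 and 0.0577), and the second probe set gave −0.22.

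SERPINB9, which inhibits granzyme B, had 6.45, 6.96 and 6.74 in ORMES-9, against 8.14, 7.99 and 7.62 in rPESC-2. The groups were well apart, and the difference was −1.20 in ORMES-9 (SE 0.17, adjusted p = 0.00169). Its second probe set gave −0.81 (adjusted p = 0.000266). ORMES-22 lay between, with 6.90, 7.49 and 7.29, and rPESC-2 exceeded it by 0.69 (adjusted p = 0.0441), under 2-fold.

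**Figure D4:**
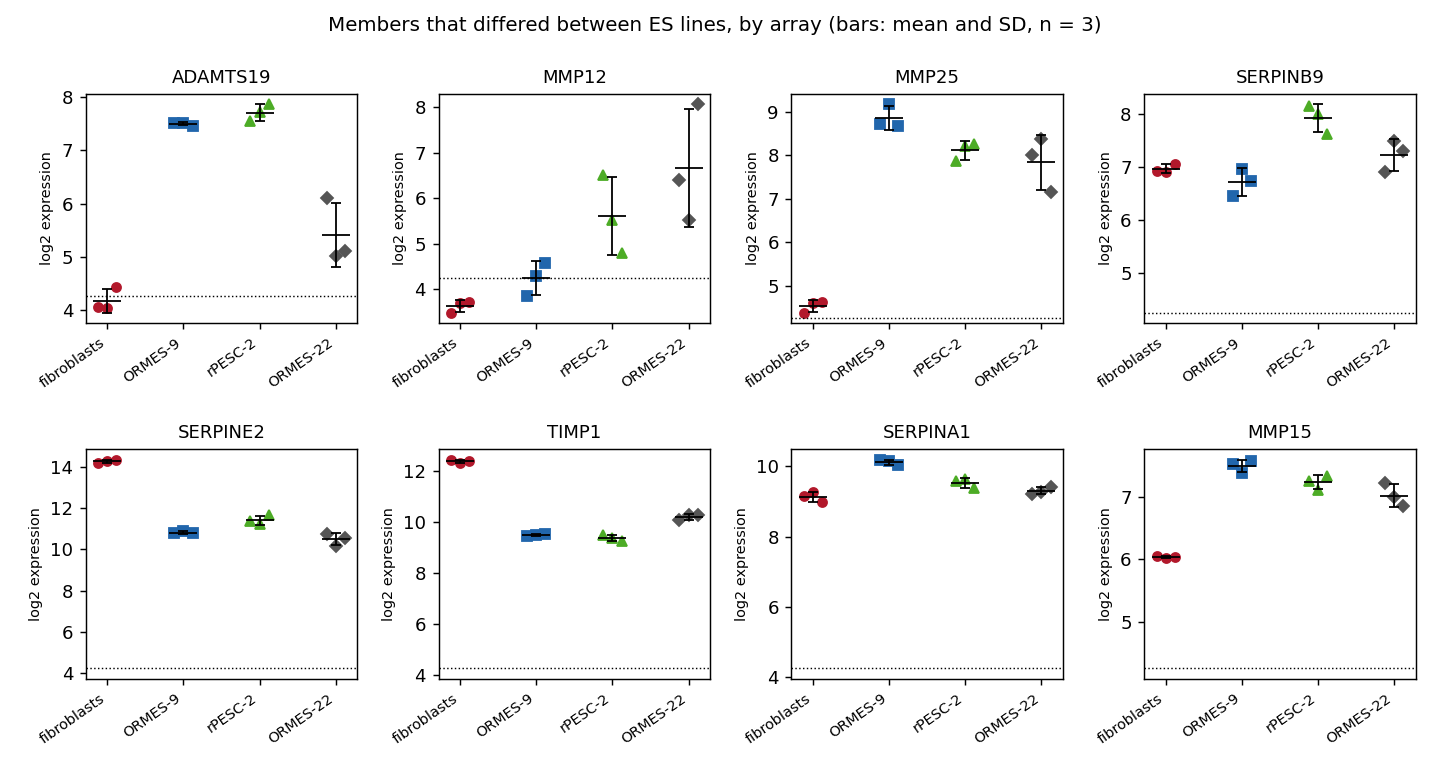
Log2 expression (y axis) by group of 8 members that passed the adjusted p between ES lines, 1 point per array with replicates A, B and C from left to right, and bars for the mean and SD (n = 3); the dotted line is the background of 4.26. ADAMTS19 was high in ORMES-9 and rPESC-2, with a lowest value of 7.47, against a highest of 6.11 in ORMES-22.

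Several members passed the adjusted p but not 2-fold. SERPINE2 had 11.36, 11.24 and 11.65 in rPESC-2, against 10.73, 10.16 and 10.57 in ORMES-22, a difference of 0.93 (adjusted p = 0.00267), with 0.92 to 0.99 through its 3 other probe sets. In ORMES-9 it was 0.60 under rPESC-2 (difference −0.60, adjusted p = 0.0279). TIMP1 had 9.46, 9.50 and 9.55 in ORMES-9 and 9.48, 9.39 and 9.27 in rPESC-2, against 10.08, 10.30 and 10.28 in ORMES-22. Its differences were −0.71 in ORMES-9 (adjusted p = 0.000316) and −0.84 in rPESC-2 (adjusted p = 0.000148), but the 2 other probe sets gave 0.01 and 0.17 in ORMES-9 and 0.33 and 0.47 in rPESC-2, so the direction rests on 1 probe set. The mean of the fibroblast marker list was also highest in ORMES-22 among the ES lines, by the array means above. Of its 8 measured genes, 1 was called lower in ORMES-9 and 2 in rPESC-2, against ORMES-22. Their differences ran from −2.67 to 0.33 in ORMES-9 and from −1.84 to 0.12 in rPESC-2. The part of these markers in the TIMP1 value was not tested.

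SERPINA1, alpha-1-antitrypsin, had 10.17, 10.15 and 10.03 in ORMES-9, above 9.58, 9.64 and 9.37 in rPESC-2 and 9.22, 9.28 and 9.42 in ORMES-22. It exceeded ORMES-22 by 0.81 (adjusted p = 0.000374) and rPESC-2 by 0.58 (adjusted p = 0.00444). A second bright SERPINA1 probe set gave 1.09 in ORMES-9 against ORMES-22, which was called (limma adjusted p = 0.0166). Its means were 8.75 in ORMES-9, 8.53 in rPESC-2 and 7.66 in ORMES-22, and ORMES-9 arrays overlapped with those of rPESC-2. The separation of ORMES-9 from rPESC-2 was therefore not shared by that probe set. MMP15 was 0.47 higher in ORMES-9 than in ORMES-22 (adjusted p = 0.0136), and ADAMTSL1 0.47 higher in ORMES-9 than in rPESC-2 (adjusted p = 0.0164). ADAMTS2 differed by −0.29 in rPESC-2 against ORMES-22 (adjusted p = 0.0472). The other probe sets of ADAMTSL1 and of ADAMTS2 gave smaller differences, in both directions. For each of these genes the difference therefore rests on a single probe set.

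Of the pathway genes, WFDC2, a protease inhibitor of the whey acidic protein family, differed in all 3 pairs: it had 10.31, 10.30 and 10.71 in ORMES-9 and 9.32, 9.59 and 9.33 in rPESC-2, against 7.64, 7.03 and 6.96 in ORMES-22. Its differences were 3.23 in ORMES-9 and 2.20 in rPESC-2 against ORMES-22, and 1.03 in ORMES-9 against rPESC-2. PLAU, urokinase, differed by −1.20 and FBN2 by −2.34 in rPESC-2 against ORMES-22, both lower, and PAPLN by −1.48 in ORMES-9 against rPESC-2. The other pericellular proteases, the partners of ADAM10 and ADAM17 and the shed proteins had no called gene between ES lines in limma, with 1 to 5 genes of a list at an unadjusted p under 0.05 in each pair.

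Members also varied within a line. A range of at least 2-fold over the 3 arrays was seen for no member in fibroblasts, 1 in ORMES-9, 4 in rPESC-2 and 15 in ORMES-22. Among all 14132 genes the counts were 10 in fibroblasts, 99 in ORMES-9, 102 in rPESC-2 and 828 in ORMES-22. In rPESC-2 the 4 were MMP1, MMP12, TIMP2 and TIMP3, and through their brightest probe sets all of them were highest on array A and lowest on array C. In ORMES-22 6 members peaked on array A, 3 on array B and 6 on array C.

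TIMP2 had 9.53 on rPESC-2 array A and 7.61 and 7.59 on arrays B and C, against 8.60, 9.31 and 8.93 in ORMES-22. Without that array the difference of rPESC-2 from ORMES-22 was −1.35 (adjusted p = 0.00539), a call that the full set did not give. A second TIMP2 probe set had 7.47, 7.40 and 7.41 in rPESC-2, against 7.37, 7.99 and 7.996 in ORMES-22. The high value on rPESC-2 array A therefore rests on 1 probe set. TIMP3 had 7.36, 6.37 and 5.69 in rPESC-2, against 6.37, 7.32 and 7.83 in ORMES-22, and its groups overlapped. MMP10, stromelysin-2, had 3.99, 4.63 and 5.78 in ORMES-22, and lay between 3.78 and 4.27 on all other arrays.

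The 4 members higher on ORMES-22 array A than on the mean of arrays B and C by at least 2-fold were ADAM18, ADAMTS3, ADAMTS19 and SERPINA5, and 7 were lower: ADAMTS1, MMP1, MMP2, MMP10, MMP19, SERPINB6 and TIMP3. Among all genes 316 (2.24%) were higher on that array and 179 (1.27%) lower. These counts use the brightest probe sets. For ADAM18 a second probe set stayed within 4.94 to 5.03 on the 3 arrays, and for SERPINA5 within 4.44 to 4.61. For MMP2 the range was 5.35 to 5.63 and for MMP19 4.88 to 4.97. On arrays A, B and C that of ADAMTS19 (5.82, 4.85 and 4.66) kept the direction. For MMP1 arrays A and B were alike and array C was high. This held through the brightest probe set (5.34, 5.39 and 7.84) and the second (4.41, 4.46 and 6.40). The second probe set of ADAMTS1 kept the direction at less than 2-fold (4.11, 4.43 and 4.54), with array A under background. Without array A, 5 members were called in rPESC-2 against ORMES-22, with MMP10, MMP19 and ADAM19 lower and SERPINE2 higher besides ADAMTS19. In ORMES-9 the count against ORMES-22 was then 6, with MMP10, MMP19 and TIMP3 lower besides the 3 named above. Over all probe sets the calls without that array were 1493 for rPESC-2 and 1284 for ORMES-9, against 656 and 831 with it. The TIMP3 difference in ORMES-9 without that array was −1.61 (adjusted p = 0.0147).

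**Figure D5:**
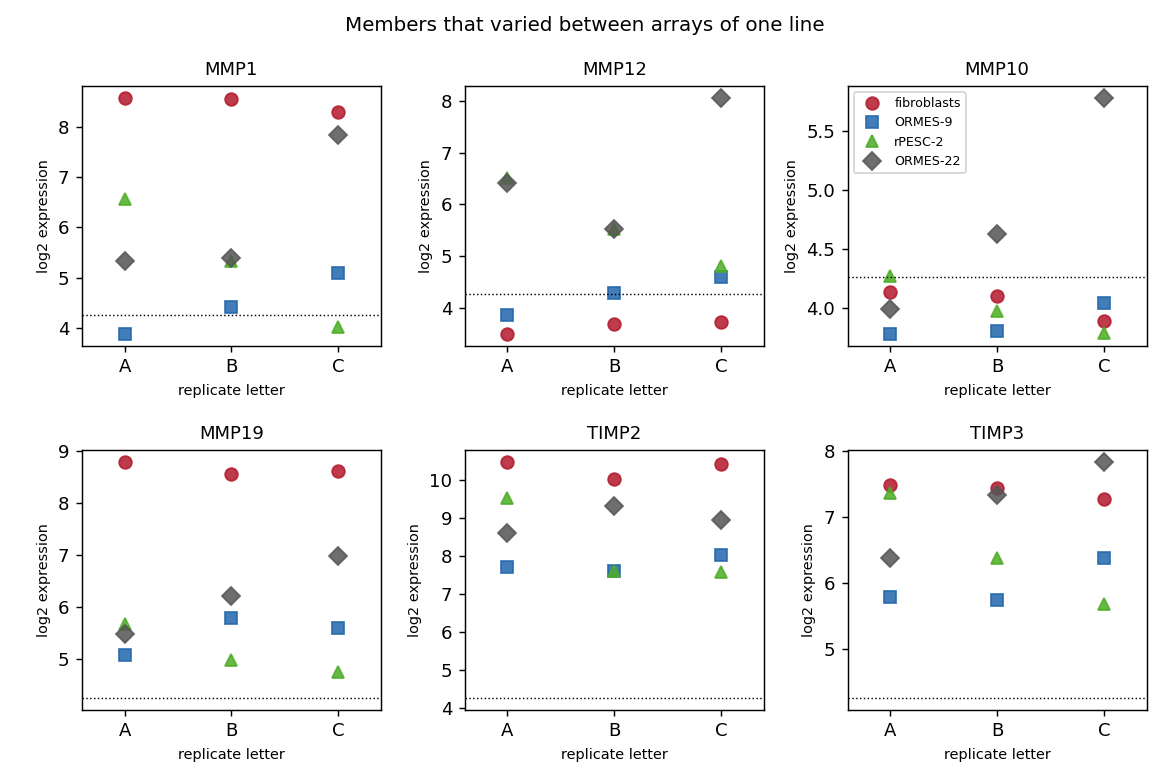
Log2 expression (y axis, brightest probe sets) of 6 members that varied between arrays of an ES line, by replicate letter (x axis). The letters were not taken to pair samples across lines. Fibroblasts are in red circles, ORMES-9 in blue squares, rPESC-2 in green triangles and ORMES-22 in grey diamonds. The dotted line is the background. MMP1 ranged over 5.34 to 7.84 in ORMES-22 and 4.02 to 6.56 in rPESC-2, and over 8.28 to 8.58 in fibroblasts.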

How the data were processed

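Total RNA was amplified by a one-cycle protocol, labelled with biotin and hybridised to 1 Affymetrix rhesus array per sample, per the labels' protocols. The values used are the authors' own log2 signals per probe set, which the submitters' processing notes credit to RMA, with its version not given in the sources used here. RMA equalises array distributions (array medians 5.01 to 5.10), so a shift shared by most genes would be reduced. The number of arrays limits the precision.

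After 99 control features were left out, 52766 probe sets were fitted with limma 3.58.1 in R 4.3.3 (one mean per group, 12 arrays together, 8 residual degrees of freedom and 3.69 from the prior), with two-sided p-values adjusted by Benjamini-Hochberg over all probe sets. The script was tested on simulated data. Symbols came from the platform annotation, where 361 probe sets had several symbols and 27449 none; 80 of 81 members matched RefSeq names for T2T-MMU8v2.0, which served for names and gene order alone. "At least" folds set the dim group at the background level. Named genes were members called between ES lines, the 12 largest rises and falls among called members in fibroblasts, a fixed set of inhibitors and proteases, and up to 6 genes per pathway list. Members and lists were chosen with earlier results of these data known.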

Additional observations from a re-analysis of the deposited data

How the results depend on the processing

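Every count of called members was recomputed under 18 settings between ES lines and 25 for the fibroblast comparison. ADAMTS19 was called in both ORMES-22 pairs under all 18, and 24 of 34 fibroblast calls were kept under all 25. With no fold minimum the counts were 5 in rPESC-2 against ORMES-22, 6 in ORMES-9 against ORMES-22, 4 in ORMES-9 against rPESC-2 and 57 in fibroblasts (70.4%, as among all genes). With a 3-fold minimum 0 members were called in ORMES-9 against rPESC-2, where SERPINB9 was 2.3-fold lower and 13 members (16%) had an unadjusted limma p under 0.05, against 21.5% of all genes. Array weights gave 2 in rPESC-2 and 5 in ORMES-9 against ORMES-22, and only the 9 ES arrays gave 1 in ORMES-9 against ORMES-22. The probe set with the largest variance gave 5 in ORMES-9 against ORMES-22 and 2 in ORMES-9 against rPESC-2. It added SERPINA1 (1.09) against ORMES-22. It also added ADAMTS10, higher in ORMES-9 by 1.13 against ORMES-22 and 1.01 against rPESC-2 (limma adjusted p = 0.00117 and 0.00319). The brightest ADAMTS10 probe set did not share this, with means of 8.69 in ORMES-9, 8.61 in rPESC-2 and 8.68 in ORMES-22. Leaving out 1 array at a time gave 1 to 5 in rPESC-2 against ORMES-22 and 1 to 6 in ORMES-9 against ORMES-22, the highest without ORMES-22 array A. ADAMTS10 reversed in fibroblasts, to 2.49 through the probe set with the largest variance and 0.42 as the mean of its probe sets; the cause was not tested. Same-letter samples did not deviate together in every pair of groups (correlations −0.31 to 0.26). These correlations cannot show whether samples of a letter were handled together, and the main fit did not pair them. With the letter as a replicate block the counts were 1, 3, 1 and 34. The fit with only the groups compared was not run for fibroblasts, since it holds all 12 arrays. Values near the background limit what could be seen of dim members.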

Other observations

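Several members are neighbours in the genome. In the gene order of the assembly T2T-MMU8v2.0, MMP7, MMP20, MMP27, MMP8, MMP10, MMP1, MMP3, MMP12 and MMP13 lie side by side. Of these 9 genes MMP1 and MMP3 rose in fibroblasts (by 3.15 and 8.97), MMP12 fell by 1.87, and 6 were not called, with differences of −0.64 to 0.09. Among the 6, MMP8, MMP13, MMP20 and MMP27 were at or under background in every group, so their differences say little. In the serpin B group SERPINB2 rose by 8.43 and SERPINB5 by 1.54, while SERPINB7, SERPINB11, SERPINB12 and SERPINB13, which lie between them, differed by −0.19 to 0.02. Here SERPINB7, SERPINB11 and SERPINB12 were at or under background in every group, so no change could be judged for them. In the serpin A group of 9 genes SERPINA5 was the only one called, and SERPINA10 was at or under background in every group. ADAMTS5 and ADAMTS1 are neighbours, and both rose, by 2.41 and 5.07.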
